A study of Mus musculus with 4 samples.

Results

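The genes of Edar signalling were examined for DNA methylation in hair matrix keratinocytes, dividing epithelial cells deep in the follicle whose progeny build the hair shaft and inner root sheath. These genes are the receptors Edar and Tnfrsf19, the adaptors Edaradd and Traf6 and the inhibitor Nfkbia. The regions examined were those that overlap each gene or the 20 kb on either side of it, which gave 179 of the 484555 regions in the authors' deposited table. The mutant mice were Tet2/Tet3 DKO, a double knockout made with Krt14-Cre, a recombinase driven by the promoter of a keratin of basal epithelium, and they were set against WT mice. Both genotypes were sampled at postnatal day 4.5 as sorted cells, with 2 whole-genome bisulfite libraries from the DKO and 2 from the WT. Sex, the exact alleles, the Cre status of the WT and the number of animals behind each library are not stated in the labels. The authors' deposited table gives 1 mean per genotype and region, with no value per library and no read depth, so the differences have neither a test nor an error over replicates. Its groups are numbered, not named; the genotype named first in its title, WT, was taken as group number 1, and all directions rest on this reading.

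Edar is a receptor of the TNF receptor family that binds the A1 form of the ligand ectodysplasin and is needed for the start of primary hair follicles, teeth and sweat glands. Its death domain recruits the adaptor Edaradd, which engages Traf6, a ubiquitin ligase that activates the kinases upstream of NF-kappaB. Nfkbia encodes IkappaB-alpha, which holds NF-kappaB in the cytoplasm, is degraded when the pathway is active and is itself transcribed in response to NF-kappaB. Tnfrsf19, also called Troy, is a related receptor of skin and hair follicle, with functions that overlap those of Edar in the mouse. Tet2 and Tet3 oxidise 5-methylcytosine, a step in its removal. Bisulfite treatment does not separate 5-hydroxymethylcytosine from 5-methylcytosine, and a level here sums the 2 forms.

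The sequences just before the gene starts are shown because each overlaps, at least in part, a listed region that was low in both genotypes, in contrast to the gains elsewhere. RefSeq promoter sequences of GRCm38 were found for 5 of the 5 genes, with 2 starts for Tnfrsf19. The 250 bases before each start are given 5' to 3' on the strand of the gene, with every CpG, the dinucleotide in which mammalian DNA is mostly methylated, in capitals.
Edar, chr10:58675697-58675946, minus strand: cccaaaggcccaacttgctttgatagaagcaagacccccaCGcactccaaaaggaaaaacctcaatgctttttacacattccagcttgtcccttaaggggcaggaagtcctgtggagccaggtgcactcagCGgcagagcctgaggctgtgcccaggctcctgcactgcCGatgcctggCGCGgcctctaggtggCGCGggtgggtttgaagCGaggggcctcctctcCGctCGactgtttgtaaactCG
Tnfrsf19 (outer start), chr14:61046856-61047105, minus strand: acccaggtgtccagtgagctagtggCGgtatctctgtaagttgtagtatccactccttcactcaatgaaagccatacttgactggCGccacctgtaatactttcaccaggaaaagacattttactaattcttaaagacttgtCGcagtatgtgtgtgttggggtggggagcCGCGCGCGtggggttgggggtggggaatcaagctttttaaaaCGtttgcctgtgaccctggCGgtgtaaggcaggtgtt
Tnfrsf19 (inner start), chr14:61037988-61038237, minus strand: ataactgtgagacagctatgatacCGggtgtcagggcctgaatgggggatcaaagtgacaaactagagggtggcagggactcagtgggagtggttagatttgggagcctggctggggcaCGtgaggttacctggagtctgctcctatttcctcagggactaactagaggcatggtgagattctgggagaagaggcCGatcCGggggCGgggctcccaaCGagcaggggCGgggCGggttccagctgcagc
Edaradd, chr13:12520451-12520700, minus strand: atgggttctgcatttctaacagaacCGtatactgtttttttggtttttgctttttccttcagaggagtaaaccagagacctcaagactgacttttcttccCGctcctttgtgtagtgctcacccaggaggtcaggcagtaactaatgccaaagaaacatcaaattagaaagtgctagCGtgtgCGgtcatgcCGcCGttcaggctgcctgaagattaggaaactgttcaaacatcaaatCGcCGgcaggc
Traf6, chr2:101678170-101678419, plus strand: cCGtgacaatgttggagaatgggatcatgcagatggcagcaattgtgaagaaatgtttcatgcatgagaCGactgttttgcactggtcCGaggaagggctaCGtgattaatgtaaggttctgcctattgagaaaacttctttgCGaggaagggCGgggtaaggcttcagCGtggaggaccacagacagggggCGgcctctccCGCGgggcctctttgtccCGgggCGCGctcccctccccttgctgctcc
Nfkbia, chr12:55492648-55492897, minus strand: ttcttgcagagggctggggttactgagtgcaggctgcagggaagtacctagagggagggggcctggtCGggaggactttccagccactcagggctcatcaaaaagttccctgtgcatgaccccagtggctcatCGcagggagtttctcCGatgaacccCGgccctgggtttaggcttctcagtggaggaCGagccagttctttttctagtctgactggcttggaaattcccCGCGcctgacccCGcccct
These windows held 8 to 13 CpGs each, against a median of 10 over 21262 promoter windows of protein-coding genes. The consensus kappa B motif, the 10-base recognition sequence of NF-kappaB, was searched on both strands and matched once, before Nfkbia, where the bases ggaaattccc begin 29 bases before the start and overlap no CpG. Such a match was present in 7.91% of the 21262 windows.

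All 6 windows overlapped a listed region of low methylation, but most of the Edaradd window and nearly all of the Traf6 window lay outside it, where no level is listed. Over the start of Edar, at chr10:58675076-58676063, the mean was 10.7% in the DKO and 8.62% in the WT in the authors' deposited table (74 cytosine positions, most CpGs counted once per strand). At the outer start of Tnfrsf19, chr14:61045025-61047020, the authors' deposited table gives 4.36% in the DKO and 3.55% in the WT over 140 positions. Its inner start, in chr14:61037046-61038268, was at 3.70% in the DKO and 3.03% in the WT by the authors' deposited table. None of these starts differed by as much as 3 points. The region chr13:12519524-12520523, which runs from 12 to 1011 bp past the outermost start of Edaradd, was at 3.10% in the DKO and 2.52% in the WT in the authors' deposited table. For Nfkbia the region over the start, chr12:55491413-55493129, held 178 positions at 3.59% in the DKO and 3.80% in the WT per the authors' deposited table. At Traf6 a short region of 4 positions, ending 248 bp before the start, was at 14.9% in the DKO and 17.0% in the WT in the authors' deposited table. Low starts were also common elsewhere. Of the 4641 protein-coding genes whose outermost start lay in a listed region, 81.7% were below 20% in both genotypes and 5.52% were at least 20 points higher in the DKO.

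Away from the starts, large differences were all gains in the DKO. A gain is used below for a region whose mean was at least 20 percentage points higher in the DKO. By this measure 60 of the 179 regions were gains (33.5%), against 22.9% of all listed regions, and no region was lower in the DKO by 20 points, against 0.0896% of all listed regions. Among regions of at least 10 positions the shares were closer, 33.6% of 110 regions at these genes and 29.5% of all such regions. The gains were spread unevenly, with 25 at Tnfrsf19, 16 at Edar, 13 at Edaradd, 3 at Traf6 and 3 at Nfkbia. Each of the 5 genes held at least 1, as did 75.1% of 21883 protein-coding genes. None held a region lower by 20 points, as did 0.704% of all genes. The median difference over the 179 regions was 10.3 points (DKO minus WT), against -0.24 points over all listed regions. By gene this median was 12.8 points at Tnfrsf19, 10.2 at Edar, 4.52 at Nfkbia, 3.31 at Edaradd and -0.93 at Traf6.

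**Figure D1:**
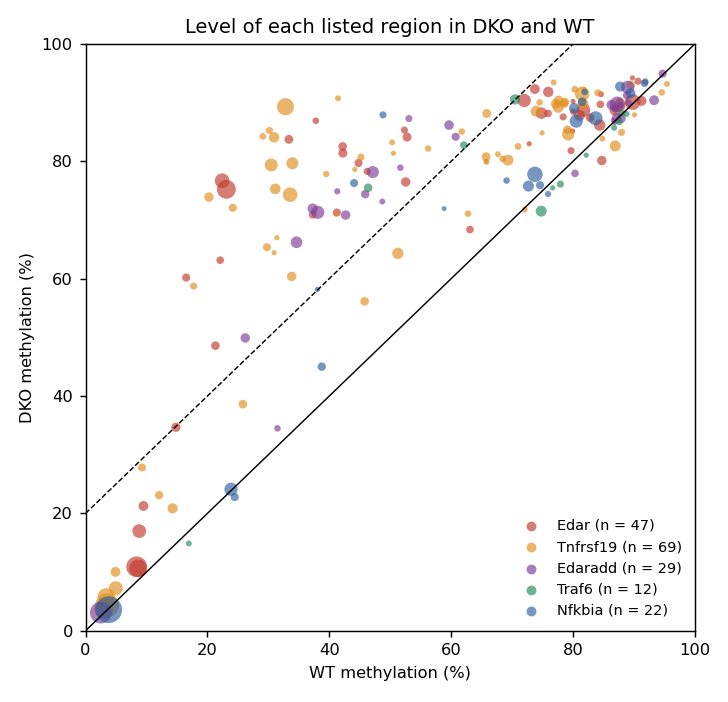
Mean methylation of the 179 listed regions at the 5 genes in percent, DKO on the vertical axis and WT on the horizontal axis, with the symbol area growing with the number of cytosine positions. The solid line marks equal levels and the dashed line a DKO level 20 points higher; the 60 gains lie on or above the dashed line, mostly at WT levels between 20% and 60%, and the regions at the gene starts lie below 20% in both genotypes.

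The gained regions were of intermediate methylation in the WT and mostly high in the DKO. Their median level was 78.0% in the DKO (interquartile range 71.3 to 83.8) and 41.2% in the WT (31.1 to 48.7), and 53 of the 60 (88.3%) had a WT level between 20% and 60%, near the 84.4% of all gains. Over all 111028 gains of the series the medians were 76.3% in the DKO and 45.6% in the WT. The gain itself had a median of 33.6 points over the 60 regions, against 28.4 points over all gains. Per gene it was 38.3 points at Tnfrsf19, 37.0 at Edar, 32.2 at Nfkbia, 28.5 at Edaradd and 20.7 at Traf6. At least 50 points separated the genotypes in 8 of the 60 (13.3%), against 1.51% of all gains, and all 8 lay at Edar or Tnfrsf19. The spread estimate that the authors list beside their statistic ran from 3.35 to 4.59 points for the 60 regions. Length and CpG spacing were close to those of other gains, with a median of 389.5 bp (345 bp over all gains) and 29.1 bp per position (26.8 bp over all gains). A listed region below 20% in both genotypes lay within 5 kb of 15 of the 60 gains (25%), against 13.1% of all gains. The 60 were taken near genes and the gains of the series were not, so these shares are not of like places.

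Of the 119 other regions, 95 had a WT level of at least 60%, 11 were below 20% in both genotypes and 13 were neither. Some of the 13 were below 20% in the WT and above 20% in the DKO. At a WT level of at least 80%, found for 57 regions, the DKO was higher by 11.99 points at most. A rise of more than 20 points is not possible from such a level. The DKO was between 10 and 20 points higher in 32 of the 179 regions, against 3.13% of all listed regions, and of these 22 lay at Tnfrsf19 and 9 at Edar. The authors' statistic was positive for each of the 119 other regions. It was negative for each of the 60 gains, as for 110840 of all 111028 gains. Its listed values start at -4.02 on the negative side and at 1.53 on the positive side in the authors' deposited table. The sign of the statistic did not follow the sign of the difference, since 155 of the 179 regions were higher in the DKO by some amount.

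Edar held its gains inside the gene. The gene lies on the minus strand at chr10:58600780-58675696 (GRCm38), and 15 of its 16 gains lay within it, covering 12.2% of the gene body, against 2.17% of the 20 kb before the start and 0% of the 20 kb past the end. Exon and intron bounds were not used here, so places are given as distances from the start. The region with the largest difference, chr10:58667154-58669002, lay 6694 to 8542 bp past the start and was at 76.7% in the DKO and 22.4% in the WT in the authors' deposited table, over 50 positions. The longest gained region of the 5 genes lay 30727 to 33264 bp past the start, chr10:58642432-58644969. It spanned 86 positions and had a mean of 75.2% in the DKO and 23.1% in the WT in the authors' deposited table. Both were thus low to intermediate in the WT and above 70% in the DKO.

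Next to this long gain, other regions of Edar were low in both genotypes. At 33752 to 34582 bp past the start the authors' deposited table gives 17.0% in the DKO and 8.81% in the WT over 43 positions. A region of 105 positions at 22276 to 24949 bp, chr10:58650747-58653420, was at 10.9% in the DKO and 8.39% in the WT in the authors' deposited table, about as low as the gene start. Closer to the start the levels alternated. A gain 1230 to 1336 bp past the start, at 63.1% in the DKO and 22.1% in the WT in the authors' deposited table, was followed by a region of 20 positions, 1941 to 2369 bp past the start, at 21.3% in the DKO and 9.52% in the WT. Then came chr10:58670560-58671345, a gain at 82.5% in the DKO and 42.2% in the WT, and chr10:58663648-58664204, at 83.8% in the DKO and 33.4% in the WT, both from the authors' deposited table. Just short of the bound, a region of 17 positions 15727 to 16394 bp past the start was at 34.7% in the DKO and 14.8% in the WT in the authors' deposited table, a difference of 19.8 points.

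In the distal part of Edar the gains were shorter. A pair of neighbours 56047 to 56862 bp past the start were at 86.9% in the DKO and 37.8% in the WT over 6 positions, and at 60.2% in the DKO and 16.5% in the WT over 12 positions, in the authors' deposited table. The gain nearest to the gene end, chr10:58601601-58601914, reached only 48.6% in the DKO, against 21.3% in the WT, in the authors' deposited table. The only gain before the gene lay 18911 bp upstream and was at 76.5% in the DKO and 52.5% in the WT in the authors' deposited table.

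Tnfrsf19 held the most gains and the largest one. On the minus strand at chr14:60963834-61046855, the gene and its flanks had 69 listed regions, and 25 were gains, with 17 inside the gene, 5 before its start and 3 past its end. Between its outer and inner start, chr14:61039919-61041726 was at 89.3% in the DKO and 32.8% in the WT over 70 positions in the authors' deposited table, a difference of 56.5 points. On either side of it lay the low regions of both starts, whose levels differed by less than 1 point. The annotation also places the long noncoding gene Gm41167 on the opposite strand over these regions.

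Another 9 gains of Tnfrsf19 lay between 51531 and 72401 bp past the start. The region chr14:60993331-60993827 was at 84.1% in the DKO and 30.9% in the WT over 23 positions, and its neighbour chr14:60994204-60994433 at 84.3% in the DKO and 29.1% in the WT over 7 positions, in the authors' deposited table. Farther on, chr14:60979279-60981327, the longest gain of the gene at 2049 bp, was at 74.3% in the DKO and 33.6% in the WT in the authors' deposited table. Low regions again lay between them. The region chr14:60977902-60978599 was at 20.9% in the DKO and 14.3% in the WT in the authors' deposited table. Another, chr14:60988228-60988456, was at 27.8% in the DKO and 9.27% in the WT, a difference of 18.6 points that falls short of the bound.

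Gains covered 6.855% of the 20 kb before Tnfrsf19, against 2.17% of the 20 kb before Edar. Of the 5 gains there, 4 overlapped the long noncoding gene Gm41168, and chr14:61060232-61060659 was at 85.3% in the DKO and 30.2% in the WT in the authors' deposited table. In the same stretch chr14:61063773-61064287 was at 73.9% in the DKO and 20.3% in the WT over 18 positions in the authors' deposited table. Another region that overlaps Gm41168, chr14:61056430-61057429, was low in both genotypes, at 5.84% in the DKO and 3.36% in the WT over 66 positions in the authors' deposited table. The other gain, 972 bp before Tnfrsf19, was a single CpG of 2 positions at 78.6% in the DKO and 44.2% in the WT in the authors' deposited table. Of the 60 gains at the 5 genes, 6 rested on 1 or 2 positions.

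At Edaradd the gains were smaller and more alike. The gene lies on the minus strand at chr13:12471209-12520535, and 13 of its 29 listed regions were gains (44.8%), the highest share of the 5 genes. None of the 13 reached 40 points, against 7 of 16 at Edar and 12 of 25 at Tnfrsf19. Over all gains of the series the third quartile was 34.2 points. The 13 gains of Edaradd ran from 23.4 to 34.7 points. Their median was 28.5 points, close to the 28.4 points of all gains in the series. The longest, chr13:12496822-12498139, lay 22396 to 23713 bp past the start and was at 71.3% in the DKO and 38.1% in the WT over 39 positions in the authors' deposited table. The largest, chr13:12487994-12488901, was at 72.0% in the DKO and 37.3% in the WT in the authors' deposited table.

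Gains lay on both sides of the unmethylated start of Edaradd. Past it, 1465 to 2273 bp from the outermost start, chr13:12518262-12519070 was at 66.2% in the DKO and 34.6% in the WT in the authors' deposited table. Before it, 398 bp upstream, chr13:12520933-12521220 was at 78.9% in the DKO and 51.7% in the WT over 6 positions in the authors' deposited table. This was the gain nearest to a start among the 5 genes. The region beyond it, 1128 bp upstream, was at 86.2% in the DKO and 59.7% in the WT over 19 positions in the authors' deposited table. The 14 other regions of Edaradd with a WT level of at least 60% differed by a median of 0.58 points, and no region of the gene was between 10 and 20 points higher in the DKO.

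**Figure D2:**
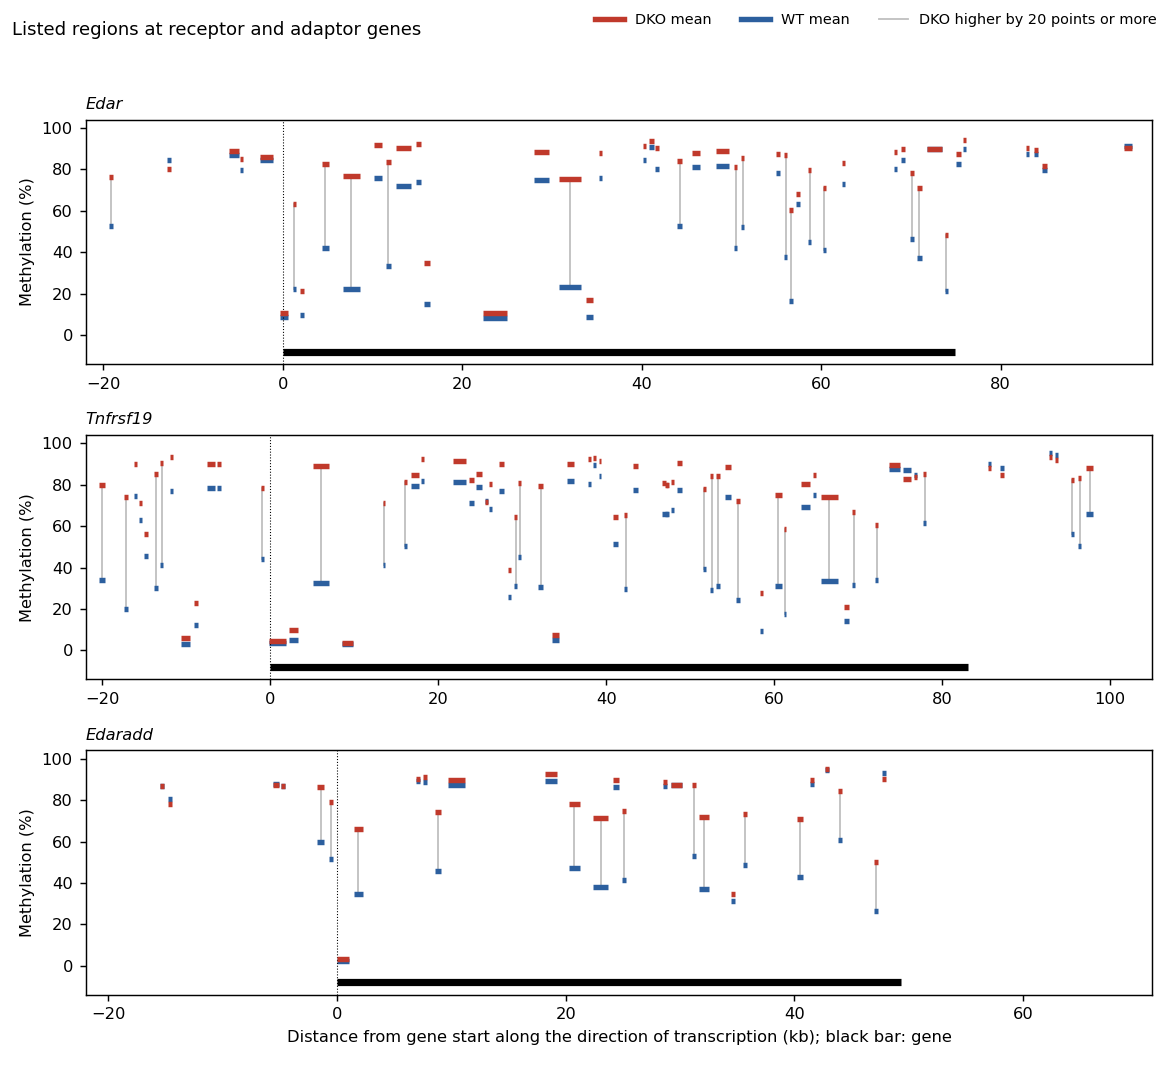
Mean methylation in percent of each listed region at Edar, Tnfrsf19 and Edaradd, in red for the DKO and blue for the WT, against the distance from the gene start in kb along transcription; very short regions are widened so that they can be seen. Grey lines join the means of the 16, 25 and 13 gains, and the levels at the starts are at 10.7% or below in both genotypes.

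Traf6 differed little outside its gains. On the plus strand at chr2:101678420-101701668, it had 12 listed regions, 3 of them gains (25%, against 22.9% of all listed regions). The 9 others differed by -3.27 to 0.11 points. Inside the gene 1 region was a gain, chr2:101683969-101684573, 5549 to 6153 bp past the start, and it passed the bound by a narrow margin at 90.5% in the DKO and 70.5% in the WT in the authors' deposited table. The largest gain lay past the gene end, chr2:101703527-101703907, at 75.5% in the DKO and 46.4% in the WT over 14 positions in the authors' deposited table. The third, 19505 bp before the start and within the noncoding gene Gm34041, was at 82.8% in the DKO and 62.1% in the WT in the authors' deposited table. Of the 12 regions, 8 were lower in the DKO, each by less than 4 points, and 3 lay in the neighbouring gene Prr5l.

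Nfkbia, the shortest gene of the set, held 1 gain inside it. The gene lies on the minus strand at chr12:55489409-55492647, and chr12:55490889-55491176, 1471 to 1758 bp past the start, was at 76.3% in the DKO and 44.1% in the WT over 12 positions in the authors' deposited table. It lay just beyond the unmethylated region over the start, whose 178 positions were the most of any region at the 5 genes. Past the gene end, 6554 to 6990 bp from the start, chr12:55485657-55486093 was at 87.9% in the DKO and 48.8% in the WT over 8 positions in the authors' deposited table. The remaining gain, a single CpG 19790 bp before the start, was at 58.2% in the DKO and 38.1% in the WT in the authors' deposited table. Intermediate regions of the WT were not all gained here, nor at Edaradd or Tnfrsf19. Before the start, chr12:55498907-55499715 was at 24.1% in the DKO and 23.9% in the WT over 40 positions in the authors' deposited table, inside the noncoding gene Gm36634. Past the gene end, chr12:55478343-55479066 was at 45.0% in the DKO and 38.8% in the WT in the authors' deposited table. At Edaradd, chr13:12485892-12485908 was at 34.5% in the DKO and 31.5% in the WT over 6 positions in the authors' deposited table. At Tnfrsf19, chr14:61005417-61006023 was at 64.3% in the DKO and 51.3% in the WT over 28 positions in the authors' deposited table.

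**Figure D3:**
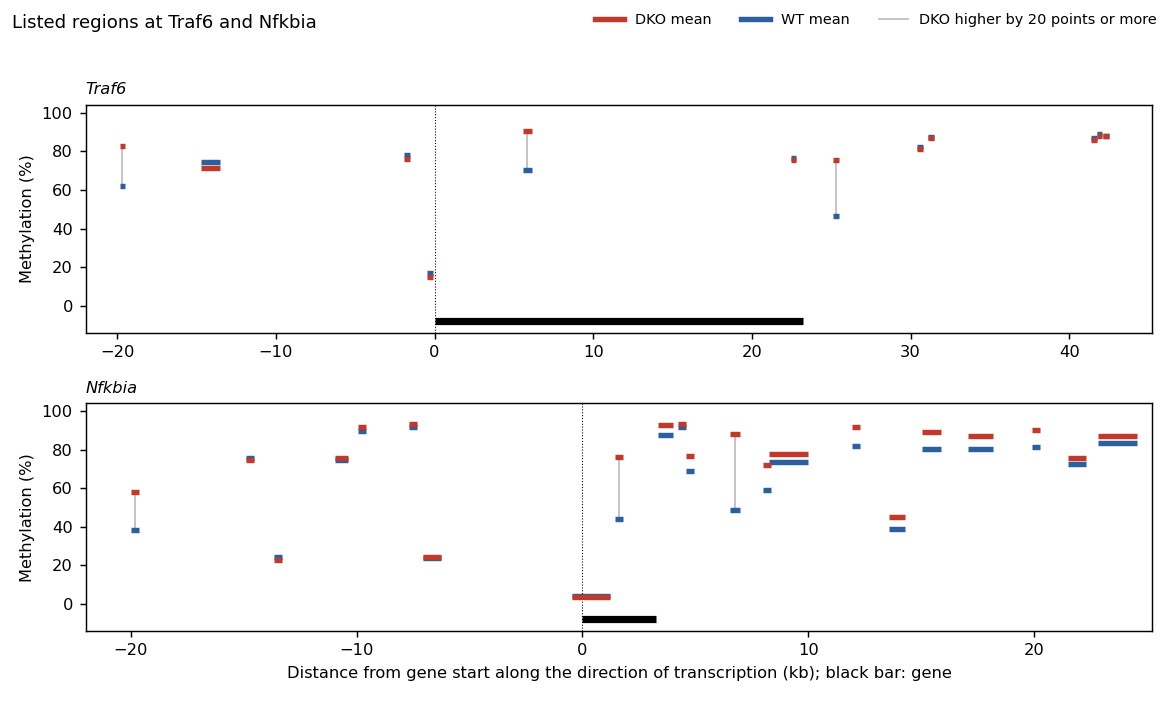
Mean methylation in percent of each listed region at Traf6 and Nfkbia, in red for the DKO and blue for the WT, against the distance from the gene start in kb along transcription; very short regions are widened so that they can be seen. Grey lines join the means of the 3 gains of each gene. The means of the other regions lie close together at Traf6 and up to 13.1 points apart at Nfkbia.

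The genes differed in the share of their length that lay in gains. With 20 kb on either side, gains covered 8.45% of the window of Tnfrsf19, 8.36% of Edar and 7.81% of Edaradd, and 2.10% of Traf6 and 1.68% of Nfkbia. Over 21883 protein-coding genes the mean was 2.53% and the median 1.76%. A window covered at least as much was found for 3.98% of all genes at the level of Tnfrsf19, 4.12% at that of Edar and 5.35% at that of Edaradd. For Traf6 it was 45.3% and for Nfkbia 51.1%. The low value of Nfkbia depended on the window, since gains covered 8.89% of its body alone and 5.84% with 50 kb on either side. For Traf6 they covered 2.60% of the body, for Edaradd 12.3% and for Tnfrsf19 9.51%. The mean and median over all genes are for windows with 20 kb and are no measure for these values. The body value of Nfkbia rests on 1 region of 288 bp. The first gain beyond the 20 kb lay 22187 to 101605 bp from the gene on the 10 sides of the 5 genes, with differences of 21.1 to 39.8 points in the authors' deposited table. For Edar it was 22187 bp before the start (86.1% in the DKO, 54.1% in the WT) and 101605 bp past the end (53.2% in the DKO, 29.8% in the WT) in the authors' deposited table.

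**Figure D4:**
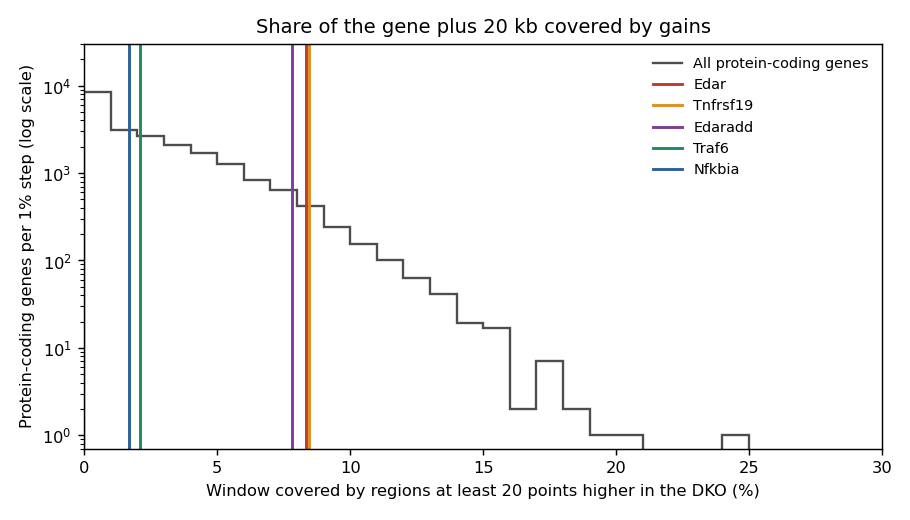
Number of protein-coding genes (log scale) by the percent of the gene plus 20 kb that is covered by gains, in steps of 1%, with the 5 genes as vertical lines. Tnfrsf19, Edar and Edaradd stand at 8.45%, 8.36% and 7.81%, right of most genes, and Traf6 and Nfkbia at 2.10% and 1.68%, in the bulk.

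Genes with the most similar pattern were sought by the distance over 3 percentages, namely the window covered by gains and the mean DKO and WT level of these gains, over the 2 genotypes. Closest to Edar were Apcdd1, an inhibitor of Wnt signalling, with a distance of 0.83 points (means of 76.6% in the DKO and 32.0% in the WT over 9 gains), and Pdlim4 at 1.22 points. Closest to Tnfrsf19 were Net1 at 0.92 points and Sec61a2 at 1.52 points. For Edaradd the nearest genes were Acot13 and Rccd1, and for Traf6 Xpnpep3 and Ackr1, all within 0.53 points. Within 1 point of Edar and of Tnfrsf19 there was 1 gene each, against 21 for Edaradd, 14 for Traf6 and 15 for Nfkbia.

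Of 33 other genes of the pathway, 32 held a gain, against 75.1% of all protein-coding genes. Gains covered a median of 2.77% of their windows, against 1.76% over all genes and 7.81% over the 5 genes above. The ligand gene Eda had 0.28% of its window in gains and the receptor gene Eda2r none, and both lie on the X chromosome. Listed regions of this chromosome had a median difference of -6.38 points, and the sex of the mice is not given. Among the 4 other Traf adaptors, all with gains, coverage was 10.2% for Traf1, 3.83% for Traf3, 3.66% for Traf5 and 1.69% for Traf2, against 2.10% for Traf6. At Traf1 the region with the largest gain was at 72.5% in the DKO and 25.1% in the WT over 36 positions in the authors' deposited table. Traf5 held the only region of the list that was lower by 20 points, chr1:191998839-191998867, with 8 positions at 63.0% in the DKO and 90.6% in the WT in the authors' deposited table.

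All 7 genes of the kinase complexes held gains, against 75.1% of all genes, but their median coverage of 1.54% was below the 1.76% of all genes. They were led by Ikbkb, a kinase that marks IkappaB for degradation, with 6.53% of its window, and Tab1, a partner of the kinase Map3k7, with 2.77%. All 5 genes of NF-kappaB subunits held gains too, with a median coverage of 1.88%, near that of all genes, and a range from 0.29% for Relb to 4.91% for Rel and 9.99% for Nfkb1. The largest gain at Nfkb1 was at 90.2% in the DKO and 37.6% in the WT over 20 positions in the authors' deposited table, but the gene lies 2.04 Mb from Tet2, a targeted gene, on chromosome 3, and the part of this linkage was not tested. At Rel a region of 4 positions was at 89.0% in the DKO and 16.7% in the WT in the authors' deposited table, the widest difference on the list. The inhibitors were led by Tnfaip3, a deubiquitinase induced by NF-kappaB, with 5.69%, and Nfkbib, a relative of Nfkbia, with 4.04%, and all 5 held gains, with a median coverage of 3.79%. All 10 genes transcribed downstream of Edar or NF-kappaB held gains, against the same 75.1% of all genes, with a median coverage of 5.82%, from 0.016% for Dkk4 to 8.86% for Ccn2 and 8.61% for Ccnd1. At Ccn2, a matricellular protein, the region with the largest gain was at 53.1% in the DKO and 15.2% in the WT over 10 positions in the authors' deposited table. Shh, a growth signal of the hair matrix, and Wnt10b had 1 gain each, at 71.03% in the DKO and 29.2% in the WT for Shh and 75.1% in the DKO and 51.8% in the WT for Wnt10b in the authors' deposited table.

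**Figure D5:**
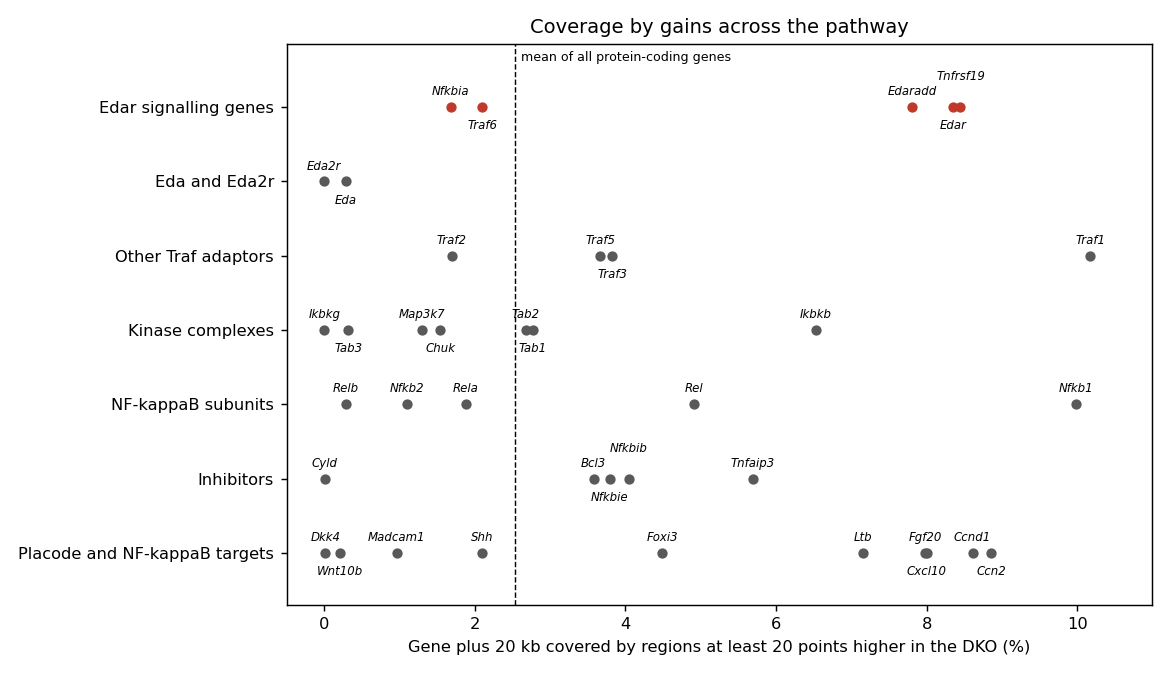
Percent of the gene plus 20 kb covered by gains for the 5 Edar signalling genes (red) and 33 other pathway genes (grey), 1 point per gene, grouped by role; the dashed line is the mean over all protein-coding genes, 2.53%. Edar, Tnfrsf19 and Edaradd stand far right of the line, as do Traf1, Nfkb1 and several targets, led by Ccn2 and Ccnd1. Eda, Eda2r, Traf6 and Nfkbia stand left of it, among others.

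The table holds no expression, so the labelled cell type could be checked only by methylation. The lowest WT level inside the gene was below 20% for 8 of 8 epithelial and hair matrix genes (2.75% to 15.2%), and for 0 of 4 fibroblast genes and 0 of the 3 immune genes with a region. It was below 20% for 3 of 4 melanocyte genes and 1 of 4 endothelial genes, from 2.49% at Mitf and 5.87% at Pecam1, and the part of other cell types in the levels above was not tested. The genes with a region held from 1 to 106 listed regions each, and a low stretch that is not listed would be missed. These counts therefore do not establish the cell type. The loss of Tet2 and Tet3 cannot be checked in a table of methylation means.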

How the data were processed

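Whole-genome bisulfite libraries of hair matrix keratinocytes (2 DKO, 2 WT) were grouped by the title in the labels. The submitters' processing notes name Trim Galore (read trimming), Bismark (bisulfite alignment) and the mouse build GRCm38/mm10. The tool that called the regions is not given in the sources used here. Per the file headers, the deposited table gives for each region the mean methylation level of each group as a fraction, multiplied here to percent, and the authors' statistic, treated here as a score. It has no p-value, no counts and no values per library, so no test was made and depth is unknown.

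Gene positions came from RefSeq (GRCm38) and gene strands from its promoter table. A region belonged to a gene if it overlapped the gene or 20 kb on either side. Gains were at least 20 points. Named genes were the 5 members, the 2 most covered genes of each pathway role and any with a loss, and the 2 most similar genes per member (those of Nfkbia are not reported here); Eda2r, Traf2, Relb, Dkk4, Shh, Wnt10b, Mitf and Pecam1 were named after their values were seen. The members and lists were chosen with earlier results of these data known. The overlap step was tested on 200 simulated windows and recovered all 200. Alternatives were other windows (gene body, 5 kb, 50 kb), minimum differences (10 and 30 points), minimum positions (5 and 10), merging within 500 bp, and leaving out each gene. Tables were computed with pandas 2.3.3 and numpy 2.4.6 in Python 3.11.15, and figures with matplotlib 3.10.9.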

Additional observations from a re-analysis of the deposited data

How the results depend on the processing

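No paired analysis was possible because the deposited table holds 1 mean per genotype, and leaving out a library could not be done for the same reason. The number of gains at the 5 genes, 60 as reported, was 93 with 50 kb on either side, 92 at a minimum of 10 points, 37 with at least 10 positions and 35 without Tnfrsf19. Their share of the listed regions, 33.5%, was 51.4% at 10 points (26.04% of all listed regions) and 23.5% at 30 points (9.63% of all). In the other settings this share ran from 31.3% without Edaradd to 40.2% in gene bodies. The median difference, 10.3 points, was 13.2 points in gene bodies and 6.54 points without Tnfrsf19. All 5 genes held a gain in each of these settings except 30 points, where Traf6 held none, and the settings that leave out a gene. The median difference did not change sign. Window coverage moved by more than 1.5 times in 10 of 40 cases, by gene and setting; for Nfkbia it ran from 0.67% with at least 10 positions to 8.89% in the gene body, and for Traf6 from 0% at 30 points to 2.97% with 5 kb on either side. With no depth, the precision of each level is unknown, and regions of few positions are the least certain.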
